A study of Canis lupus familiaris with 10 samples.

Results

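The 5 genes described here belong to insulin and insulin-like growth factor (IGF) signaling: the insulin receptor substrates IRS1 and IRS2, the growth factor IGF1, and the IGF-binding proteins IGFBP2 and IGFBP3. They were picked by name from the study's list of genes that differed between Post-ACTH and Pre-ACTH, and matched by Ensembl identifier to the count tables, where they are 5 of 19856 genes. All 5 passed the filter on low counts (at least 10 reads in at least 1 library), as did 13577 genes in all. Because the same contrast chose them, their changes are given below as a description and not as a test.

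Visceral adipose tissue (VAT) came from 5 Beagle dogs, 3 male and 2 female, operated on by laparotomy once untreated (Pre-ACTH, 5 libraries) and again after 25 weeks of tetracosactide (Post-ACTH, 5 libraries). Tetracosactide, a synthetic analog of ACTH that drives cortisol secretion by the adrenal gland, was released by osmotic pumps changed every 4 weeks, at 1.3 to 1.95 μg/kg/day at the start and 6 to 10 μg/kg/day at the end. Each dog served as its own control. No untreated dogs were sampled at both times, so the treatment cannot be told apart from the elapsed time or the earlier surgery. Dog numbers from 1 to 5 follow the animal IDs of the labels, and the females are dogs 2 and 3. Library totals ran from 8728330 counted reads (Pre-ACTH of dog 3) to 14867529. Values are given as CPM (reads scaled to a common library size, with TMM factors), which suit comparisons of a gene between libraries. They are not divided by transcript length, so sums over genes, and the order of different genes within them, also reflect the lengths of the transcripts. The cortisol-responsive gene FKBP5, a co-chaperone of the glucocorticoid receptor, was higher in Post-ACTH in all 5 dogs, with 384 ± 81.2 against 88.8 ± 35.6 CPM (SD, n = 5). Of 5 glucocorticoid targets, 4 could be named, all through the study's list of called genes, and their summed level, to which TSC22D3 added most, was 658 to 1092 CPM in Pre-ACTH and 1339 to 1799 CPM in Post-ACTH. PER1 and ZBTB16 overlapped between the groups, and PER1 was not higher in dog 1.

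IRS1 and IRS2 are docking proteins that the insulin and IGF1 receptors phosphorylate and that then recruit phosphatidylinositol 3-kinase. This starts the AKT cascade, which in fat cells drives glucose uptake and restrains lipolysis. IGF1 is a growth hormone-dependent growth factor made by liver and locally in many tissues, including fat. IGF-binding proteins carry IGFs, limit their access to the receptor and have actions of their own. IGFBP3 is the main carrier in plasma, and IGFBP2 is a binding protein that white fat cells secrete.

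Of the 5 genes, 4 were higher and 1, IGF1, was lower in Post-ACTH, in every dog. In the fit over all genes (edgeR quasi-likelihood test blocked on dog, FDR under 0.01), 2 of the 5 genes were called, IRS1 and IGFBP3, both higher. Of all 13577 tested genes, 1.97% were called in that fit, 0.751% as higher and 1.22% as lower. Since the contrast chose the 5 genes, nothing is read from this count. Both calls were lost when dog 2, dog 3 or dog 5 was left out, and that of IRS1 also without dog 4. With DESeq2 all 5 genes passed FDR under 0.01, as did 8.69% of all genes. The study made its list with DESeq2, the same pairing and the same threshold, so this outcome follows from the choice of the genes. The groups did not overlap for 4 of the 5 genes (all but IRS2), a separation that 9.04% of all tested genes showed, 4.30% with higher and 4.74% with lower Post-ACTH values. The same direction in all 5 dogs held for 27.0% of all tested genes.

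**Figure D1:**
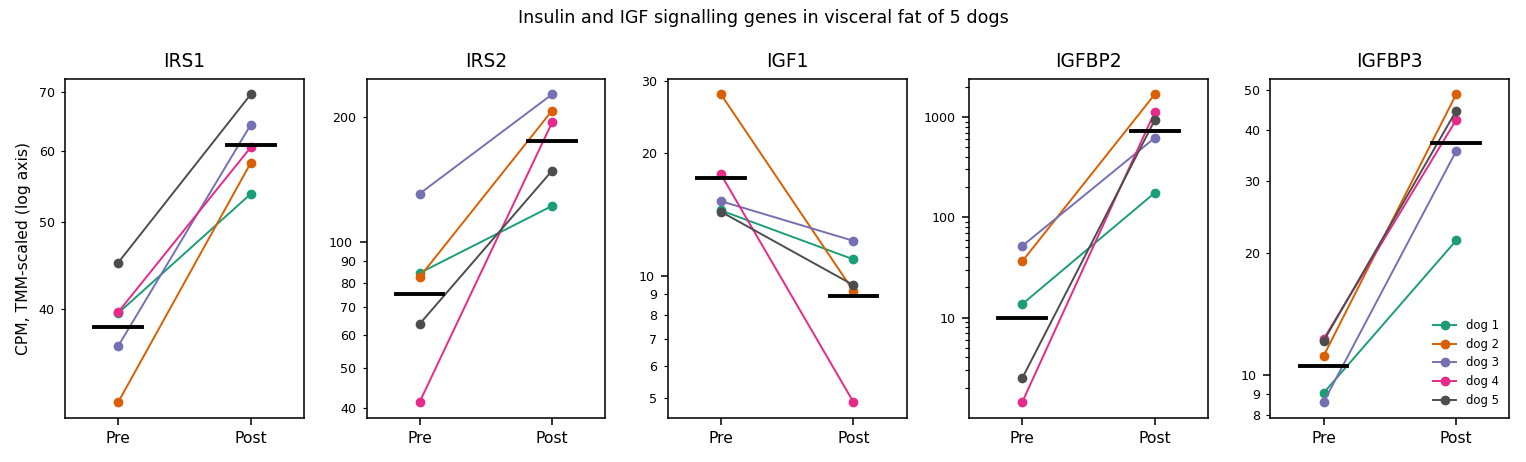
CPM (TMM-scaled, log axis) of the 5 genes before (Pre) and after (Post) tetracosactide, with 1 line per dog and a black bar at the geometric mean of each group (n = 5). IGF1 falls along every line and the other genes climb along every line, and IGFBP2 spans from 1.43 to 1688 CPM.

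Among the receptor substrates, IRS1 had Pre-ACTH levels of 39.5, 31.4, 36.3, 39.6 and 45.0 CPM in dogs 1 to 5. In Post-ACTH they were 53.8, 58.3, 64.3, 60.6 and 69.5 CPM. The lowest Post-ACTH library thus lay above the highest Pre-ACTH library, and the dogs differed little, with a highest to lowest ratio of 1.43 before and 1.29 after treatment. IRS1 showed a log2 fold change of 0.68 (SE 0.09), or 1.60-fold. Its within-dog log2 changes ran from 0.44 in dog 1 to 0.89 in dog 2, and their SD over the dogs (0.18) was at percentile 22.9 of all tested genes. IRS1 therefore had the smallest and most even change of the 5 genes.

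IRS2, the other main substrate, had Pre-ACTH levels of 84.4, 82.5, 131, 41.3 and 63.7 CPM. In Post-ACTH these were 122, 207, 227, 194 and 149 CPM. The groups overlapped, since the Post-ACTH level of dog 1 lay below the Pre-ACTH level of dog 3, although each dog was higher after treatment than before. Its fitted log2 fold change was 1.21 (SE 0.22), or 2.32-fold, and missed FDR under 0.01. Dog 4 had the lowest IRS2 before treatment and the largest log2 change (2.23), while dog 1 had the smallest (0.53). A change contains the Pre-ACTH level it starts from, so the low start and the large change of dog 4 are not independent. The coefficient of variation between dogs was 41.0% before and 24.0% after treatment.

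For each IRS1 read, the libraries held 2.13, 2.63, 3.60, 1.04 and 1.41 IRS2 reads in Pre-ACTH and 2.27, 3.56, 3.53, 3.20 and 2.14 in Post-ACTH, in dogs 1 to 5. Such read ratios within a library do not depend on the scaling between libraries, but they include the lengths of both transcripts, so only their change has a meaning. The groups overlapped widely. The ratio was higher after treatment in 4 of 5 dogs and almost level in dog 3, with a mean log2 change of 0.54 ± 0.65 (SD, n = 5), smaller than the spread between dogs. Without dog 4, whose ratio went from the lowest of all libraries to 3.20, the mean change was 0.27. Both substrates were higher after treatment in every dog. Their balance moved most in dog 4, by 1.62 on the log2 scale, followed by 0.60 in dog 5 and 0.44 in dog 2. It moved less in dogs 1 and 3.

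IGF1, the ligand, was the gene with lower values. Its Pre-ACTH levels were 14.4, 27.8, 15.2, 17.7 and 14.3 CPM, and its Post-ACTH levels 11.0, 9.16, 12.2, 4.89 and 9.47 CPM. All Post-ACTH libraries lay below all Pre-ACTH libraries. The level before treatment was close to even in 4 dogs, with dog 2 standing above them, and the lowest level of all was that of dog 4 after treatment, which rested on 68 reads. The fitted log2 fold change was -0.94 (SE 0.25), a 1.92-fold lower level, and missed FDR under 0.01 and, narrowly, FDR under 0.05. In edgeR IGF1 passed FDR under 0.05 without the block, without the low-count filter, with total counts and with 10 reads required in 5 libraries. It also passed without dog 1, but not with RLE scaling factors or without dog 2, 3, 4 or 5. The dogs formed a wide range, from -0.32 in dog 3 and -0.39 in dog 1 to -1.59 in dog 2 and -1.82 in dog 4. Without dog 4 the fitted change was -0.73, and without dog 2 it was -0.77.

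The markers of connective tissue cells that could be named were lower together with IGF1. Of 8 markers of adipose progenitors and fibroblasts, 6 could be named here (PDGFRB, DCN, LUM, PI16, COL1A1 and COL3A1), all taken from the study's list of called genes, and all 6 were lower in Post-ACTH in every dog, with a median log2 fold change of -1.60. Of the 6, 4 were called lower, as were 1.22% of all tested genes, and nothing is read from this count, since being on that list is what gave them a name. Their summed level was 1315 to 2652 CPM in Pre-ACTH and 452 to 735 CPM in Post-ACTH. None of the 6 was at 0, the lowest being PI16, a marker of universal progenitors, at 1.94 to 7.47 CPM in Post-ACTH. Not all matrix genes were lower. COL12A1 and ELN, chosen here after their values were seen, had log2 fold changes of 1.94 (SE 0.36, higher in 5 of 5 dogs) and 0.98 (SE 0.25, higher in 4 of 5 dogs). CSF1R, the only macrophage marker of 6 that could be named, was 99.4 ± 26.0 CPM before and 59.5 ± 16.2 CPM after treatment (SD, n = 5), with overlapping groups, a higher level after treatment in dog 5 and no call at FDR under 0.05. C1QB and C5AR1, genes of macrophages and other myeloid cells chosen here after their values were seen, had the opposite sign, with log2 fold changes of 1.00 (SE 0.23, higher in 5 of 5 dogs) and 1.09 (SE 0.27, higher in 4 of 5 dogs). CKM, the only skeletal muscle marker of 5 that could be named, was at 7.97 ± 5.66 CPM before and 86.1 ± 37.5 CPM after treatment, higher in every dog. Their part in the values of the 5 genes was not tested. In bulk tissue, fewer cells of a type and less RNA per cell cannot be told apart.

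IGFBP2 changed most. Before treatment it stood at 13.6, 36.4, 51.8, 1.43 and 2.48 CPM in dogs 1 to 5, a 36.2-fold span between dogs, and the Pre-ACTH libraries of dogs 4 and 5 held only 16 and 37 of its reads. After treatment the levels were 176, 1688, 620.5, 1128 and 936 CPM. Even the lowest Post-ACTH library, that of dog 1, was above every Pre-ACTH library. Ranked by reads among all genes of a library, IGFBP2 went from place 3613 (dog 3) to 11677 (dog 4) in Pre-ACTH to place 57 (dog 2) to 974 (dog 1) in Post-ACTH. These places count reads, which longer transcripts yield more of.

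The fitted log2 fold change of IGFBP2 was 5.80 (SE 0.99), or 55.7-fold, and missed FDR under 0.01 in edgeR, which it passed without the low-count filter or without the block, with a spread between dogs among the widest of all genes. Only 2 of 13577 genes had a larger positive estimate, both with a mean under 1 CPM, so that among the 12274 genes with a mean of at least 1 CPM the estimate for IGFBP2 ranked at place 1. Its within-dog log2 changes were 3.68, 5.53, 3.58, 9.47 and 8.47, and their SD of 2.72 was at percentile 99.8 of all genes, beside a median SD of 0.31. Dogs 4 and 5, with the lowest levels before treatment, had the largest changes, and after treatment they lay inside the range of the others. The highest to lowest ratio between dogs was 9.61 after treatment, smaller than before.

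IGFBP3 behaved more evenly. It was at 9.05, 11.1, 8.59, 12.3 and 12.1 CPM in Pre-ACTH, and at 21.4, 48.9, 35.5, 42.3 and 44.5 CPM in Post-ACTH. The groups were well apart, and dog 1 was again the lowest after treatment. Its log2 fold change was 1.82 (SE 0.14), or 3.53-fold, with changes of 1.23 in dog 1 and 1.77 to 2.12 in the other 4 dogs. IGFBP3 differed from IGFBP2 in that the dogs were nearly alike before treatment, with a coefficient of variation of 16.2% against 105%.

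**Figure D2:**
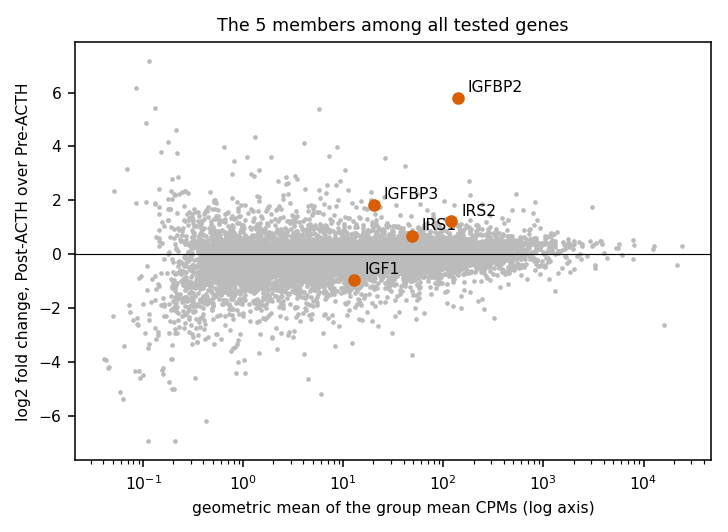
Fitted log2 fold change (vertical axis, Post-ACTH over Pre-ACTH) against the geometric mean of the 2 group mean CPMs (log axis) for all 13577 tested genes in grey, with the 5 genes in orange. IGFBP2, at 5.80, has the largest estimate among genes with a mean of at least 1 CPM, IGF1 lies below 0 at -0.94, and the other 3 lie between 0.68 and 1.82.

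Against IGF1, both binding proteins shifted in every dog. Reads of IGFBP2 per read of IGF1 were 0.942, 1.31, 3.40, 0.0808 and 0.173 in Pre-ACTH and 16.0, 184, 51.0, 230.5 and 98.8 in Post-ACTH, in dogs 1 to 5. The mean log2 change of this ratio was 7.15 ± 3.27 (SD, n = 5), or 142-fold, with single dogs between 15.0-fold (dog 3) and 2852-fold (dog 4). The highest value, from 16 reads of IGFBP2 in the Pre-ACTH library of dog 4, is imprecise.

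Reads of IGFBP3 per read of IGF1 were 0.626, 0.401, 0.564, 0.692 and 0.846 in Pre-ACTH and 1.95, 5.34, 2.92, 8.65 and 4.70 in Post-ACTH. In every dog this ratio went from below 1 to above 1, but where it lies relative to 1 depends on the lengths of both transcripts. The mean log2 change was 2.77 ± 0.90 (SD, n = 5), or 6.84-fold, from 3.12-fold in dog 1 to 13.3-fold in dog 2. Neither ratio overlapped between the groups. Dog 1 before and after treatment showed the least shift in the IGFBP3 ratio and in the levels of IRS1, IRS2 and IGFBP3, dog 3 the least in those of IGF1 and IGFBP2, and dog 4 the greatest in those of IRS2, IGF1 and IGFBP2.

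**Figure D3:**
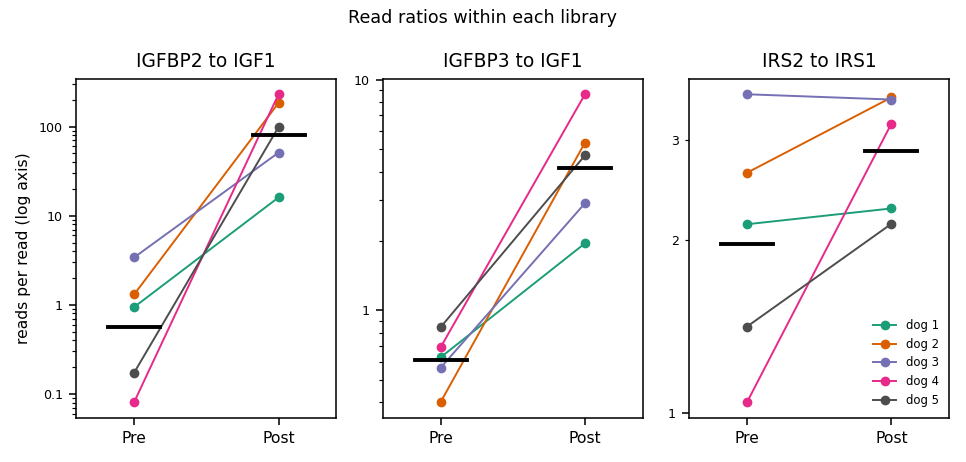
Reads of 1 gene per read of another within each library (log axis), before (Pre) and after (Post) tetracosactide, with 1 line per dog and a black bar at the geometric mean (n = 5). Both binding protein ratios are higher after treatment in all 5 dogs without overlap, and the IRS2 to IRS1 ratio overlaps between the groups.

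Of 84 genes in a list of the insulin and IGF pathway, 18 could be named in these data, the 5 genes above and 13 others. The listed receptors, PI3K and AKT subunits and FOXO factors were not analysed here, since the tables used here pair no identifier with their symbols. All 18 names come from the study's own list of called genes, so that both their directions and their sizes and calls follow from the selection and are a description. Of the 13 other genes, 8 were higher and 5 lower, 12 kept 1 direction in all 5 dogs, and 1 (EIF4EBP1) was called in the fit over all genes, in which 1.97% of genes were called. At FDR under 0.05, 11 of the 13 were called, beside 11.1% of all genes.

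**Figure D4:**
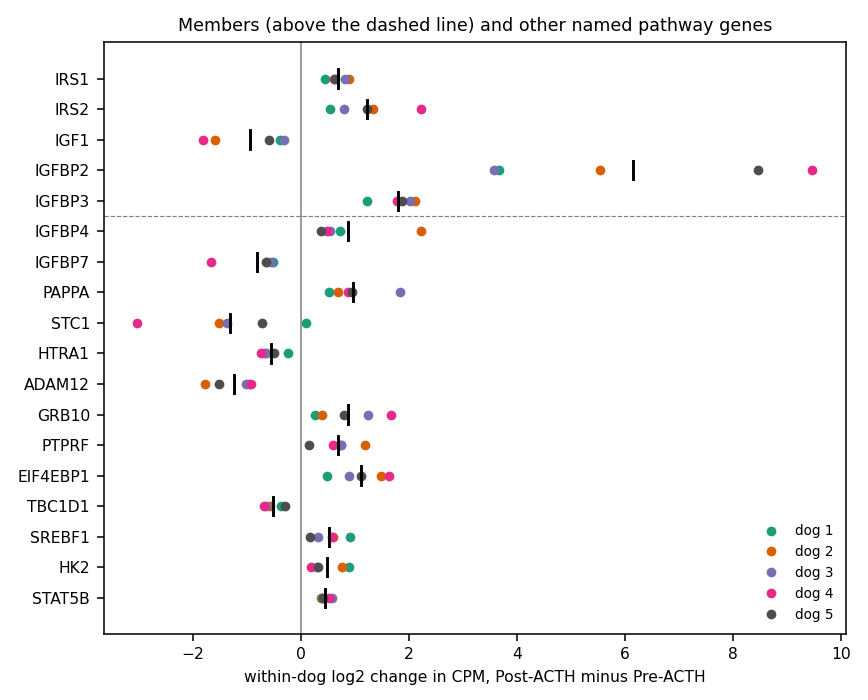
Within-dog log2 change in CPM (Post-ACTH minus Pre-ACTH) for the 5 genes above the dashed line and the 13 other named pathway genes below it, with 1 point per dog and a black tick at their mean (n = 5). IGFBP2 has the widest spread, from 3.58 to 9.47, and STC1 is the only gene of the 18 with dogs on both sides of 0.

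The other 2 binding proteins that could be named went in opposite directions. IGFBP4, which holds IGFs near the cell and is cut by the protease PAPPA, was at 73.9 ± 15.7 CPM before and 150.4 ± 92.4 CPM after treatment (SD, n = 5), which gave a log2 fold change of 0.85 (SE 0.26) and missed FDR under 0.05. Dog 2 alone reached 307 CPM, with a log2 change of 2.22 against 0.37 to 0.72 in the other dogs, and the groups overlapped. IGFBP7, a relative with low affinity for IGFs that is found in vessel walls and matrix, was lower, at 147 ± 7.42 against 87.2 ± 24.1 CPM, a log2 fold change of -0.80 (SE 0.17) called at FDR under 0.05 only. Its reads per IGF1 read stayed between 5.58 and 10.9 in all 10 libraries, with a mean log2 change of 0.15 ± 0.49 (SD, n = 5), and were higher in 2 of 5 dogs. Both ends of that range were dog 2, at 5.58 before and 10.9 after treatment. Its log2 change was 0.97, against -0.24 to 0.18 in the other dogs. The mean change of the IGFBP7 to IGF1 ratio thus lay within the spread between dogs, with dog 2 apart.

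Within the summed reads of IGFBP2, IGFBP3, IGFBP4 and IGFBP7, IGFBP2 took 0.647% to 17.7% in Pre-ACTH and 38.8% to 86.7% in Post-ACTH. The share of IGFBP7 went from 48.2% to 66.5% down to 3.54% to 23.6%, that of IGFBP4 had a median of 28.7% before and 14.3% after treatment although its CPM was higher in every dog, and that of IGFBP3 stayed small, at 2.93% to 5.68% and 2.28% to 4.73%. These shares, and the sums below, weight each gene by its transcript length, and since the make-up of the sum differed between libraries, the size of their change depends on the lengths too. For every IGF1 read, the 4 genes together had 9.65 to 19.2 reads in Pre-ACTH and 41.3 to 266 reads in Post-ACTH, with a mean log2 change of 3.02 ± 1.51 (SD, n = 5). In 4 dogs most binding protein reads came from IGFBP2 after treatment, and in dog 1 it was 38.8%.

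**Figure D5:**
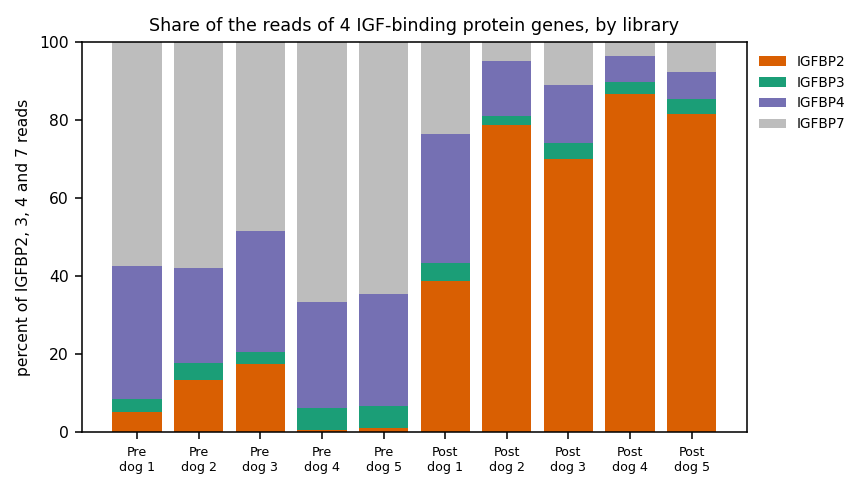
Share of the summed reads of IGFBP2, IGFBP3, IGFBP4 and IGFBP7 (percent of reads, not divided by transcript length) in each of the 10 libraries. IGFBP2 grows from at most 17.7% in Pre-ACTH to between 38.8% and 86.7% in Post-ACTH. The shares of a library add up to 100%, so a lower share is not a lower level.

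Among the proteases that release IGFs from binding proteins and their inhibitor, PAPPA (pappalysin 1) was at 3.89 ± 0.967 CPM before and 7.68 ± 1.46 CPM after treatment (SD, n = 5), with a log2 fold change of 0.98 (SE 0.22) and no overlap. STC1, stanniocalcin 1, which blocks PAPPA, was at 17.9 ± 7.87 and 6.76 ± 2.27 CPM, a log2 fold change of -1.32 (SE 0.39), with dogs from 0.09 (dog 1) to -3.03 (dog 4). The PAPPA to STC1 read ratio was higher after treatment in all 5 dogs, with a mean log2 change of 2.33 ± 1.38, although the groups overlapped. HTRA1, a serine protease that can cut IGF-binding proteins, showed -0.56 (SE 0.09), and ADAM12, a metalloprotease that acts on IGFBP3, -1.28 (SE 0.20) on the log2 scale. At FDR under 0.05, PAPPA, HTRA1 and ADAM12 were called and STC1 was not.

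Downstream of the receptors, GRB10, an adaptor that binds the insulin receptor and dampens it, had a log2 fold change of 0.87 (SE 0.20), and PTPRF, a tyrosine phosphatase of the receptor, 0.68 (SE 0.14). EIF4EBP1, the translation repressor that mTOR inactivates, rose from 30.3 ± 5.83 to 65.7 ± 9.57 CPM (SD, n = 5), by 1.12 on the log2 scale (SE 0.17) and with no overlap. That call was lost when libraries were scaled by total counts, with a stricter count filter, and when dog 2, 3, 4 or 5 was left out. Of 10 listed genes of glucose and lipid handling, 3 could be named. The log2 fold changes were 0.51 (SE 0.11) for SREBF1, a lipogenic transcription factor, 0.48 (SE 0.12) for HK2, a hexokinase, and -0.52 (SE 0.09) for TBC1D1, a Rab GTPase-activating protein of glucose transporter traffic. STAT5B, which carries the growth hormone signal to the IGF1 gene, showed 0.45 (SE 0.08), opposite in sign to IGF1, and the SD of its changes between dogs (0.09) was at percentile 4.34 of all genes. GRB10, PTPRF, SREBF1, HK2, TBC1D1 and STAT5B were called at FDR under 0.05 only.

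Sex was a measure that the choice of the genes did not use. The difference in treatment change between 3 males and 2 females was tested over all genes (edgeR quasi-likelihood test of the interaction, blocked on dog), and no gene of 13577 was called at FDR under 0.01 (0%), while 435 had an unadjusted p under 0.05. None of the 5 genes was among the latter. Before treatment IGFBP2 stood at 36.4 and 51.8 CPM in the females and at 1.43 to 13.6 CPM in the males. After treatment the sexes overlapped. A change contains the level it starts from. The IGFBP2 change averaged 7.21 in males and 4.56 in females on the log2 scale, a fitted difference of 2.57 (SE 1.70, adjusted p = 1), so that with 5 dogs a difference of this size could not be told from the spread. For IGFBP3 the difference was -0.45 (SE 0.24) and for IRS1 -0.30 (SE 0.15), and those for IRS2 (0.26) and IGF1 (0.04) were below their SE (all adjusted p = 1).

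The genes closest in pattern were sought among 1060 named genes with a mean of at least 1 CPM, by the Pearson correlation of log2 CPM over the 10 libraries. The libraries share their 2 groups, and all named genes come from the list of called genes, so these values are a description without a test. For IRS1 the closest were FAM105A (r = 0.963), FAU (0.962) and IDH2 (0.949). For IRS2 they were MMP19 (0.966), SPSB1 (0.958) and SSR4 (0.936). MMP19 followed IRS2 also in deviations from the group means (r = 0.952), thus from dog to dog. For IGF1 the closest were TMPRSS9 (0.978), DTL (0.948) and ACPP (0.946), all lower in Post-ACTH. For IGFBP2 they were SSR4 (0.976), SPSB1 (0.970) and PRLR (0.968), so that 2 of the 3 were shared with IRS2. For IGFBP3 they were PLCD4 (0.989), TMEM52 (0.984) and RPSA (0.977). In the deviations from the group means, r ran from 0.665 (IDH2 with IRS1) to 0.972 (TMPRSS9 with IGF1).

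In the gene order of the RefSeq annotation of the assembly UU_Cfam_GSD_1.0, which is not the build of the counts and was used for neighbors only, the 5 genes lie on different chromosomes. Each binding protein gene has a relative beside it, IGFBP5 next to IGFBP2 and IGFBP1 next to IGFBP3, while IRS1 lies between NYAP2 and RHBDD1. IGFBP5 and IGFBP1 carry no name in the tables that link identifiers to symbols and were not analysed here.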

How the data were processed

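RNA was extracted from VAT of 5 dogs, sampled before and after tetracosactide. The labels describe stranded TruSeq mRNA libraries, and the study's methods another TruSeq kit, with depletion of ribosomal RNA and a different read length. The authors trimmed the reads, aligned them to CanFam3.1 with STAR and deposited raw counts per Ensembl gene from featureCounts, 1 table per library, as the submitters' processing notes and the methods name them (versions, strand setting and treatment of multi-mapping reads not given in the sources used here). Dogs were paired by the animal ID in the labels. Deviations from group means had r from 0.0772 (dog 4) to 0.412 (dog 2) between libraries of the same dog, over 13577 genes. Libraries of different dogs were not compared in this way, so the pairing rests on the labels.

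In R 4.3.3, edgeR 4.0.16 (TMM, glmQLFit, glmQLFTest, dog as a block) was fitted to genes that reached 10 reads in 1 library or more, with Benjamini-Hochberg adjustment and FDR under 0.01. SEs were derived from the F statistic. Within-dog changes were computed on log2 CPM (prior count 2), and read ratios raw counts. The script was tested on simulated data. Alternatives were DESeq2 1.42.0 (the method behind the study's list), no block, other scalings and filters, FDR under 0.05 and each dog left out. All pairs of libraries within a group differed beyond counting error (chi-square over degrees of freedom of 18.1 or more).

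Symbols came from the study's gene list (1079 of 1190 identifiers), whose fold change and p-value columns were not used. The genes and lists were chosen with earlier results of these data known. Named genes are the 5 genes, the nameable pathway genes and the 3 most similar genes of each. The few markers listed for adipocytes, mesothelium, endothelium, liver, pancreas, adrenal cortex and lymphoid cells (4 to 7 for each) carried no name there and were not analysed here. Other genes of such cells may carry one. The endothelial genes CD93 (mean 126 CPM in Pre-ACTH, 56.5 in Post-ACTH) and CLEC14A (29.0 and 19.1) were lower. ACKR1 (12.3 and 19.5) and ECE1 (154 and 315), which endothelial cells also express, were higher. These genes were picked after their values were seen.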

Additional observations from a re-analysis of the deposited data

Results flagged for a closer look

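In 37 groups of 5 values (levels, changes and ratios of the 5 genes, and changes of the 13 other pathway genes), a single dog stood apart from the rest in 3, while chance flags about 1 in 20 groups. The IGF1 level of dog 2 in Pre-ACTH (27.8 CPM) lay above the others by a gap of 0.750 of the group's whole range. The log2 change of IGFBP4 in dog 2 (2.22) had a gap of 0.815 of the range, and that of IGFBP7 in dog 4 (-1.67) a gap of 0.886. Without dog 2 the fitted log2 fold change of IGF1 was -0.77 in place of -0.94.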

How the results depend on the processing

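All 55 recomputed fold changes of the 5 genes kept their direction and stayed within 1 SD between dogs of the reported value. With each dog left out in turn, they ranged from 0.63 to 0.74 for IRS1, 0.97 to 1.38 for IRS2, -1.10 to -0.73 for IGF1, 5.08 to 6.54 for IGFBP2 and 1.74 to 1.96 for IGFBP3. The mean log2 changes ranged from 6.07 to 7.97 for the IGFBP2 to IGF1 ratio, 2.53 to 3.06 for IGFBP3 to IGF1 and 0.27 to 0.69 for IRS2 to IRS1. Adding 1 read to each count moved no ratio beyond the spread.

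Counts of calls depended on the settings, and the cause was not tested. Over all genes, 268 were called, 1180 with DESeq2, 438 without the low-count filter and 1509 at FDR under 0.05. Leaving out dogs 1 to 5 gave 318, 1, 12, 117 and 23. Of the 5 genes, 2 were called, 5 with DESeq2, 4 at FDR under 0.05, 3 without the filter (IGFBP2 also), and 0 to 2 with a dog left out. Of the 13 other pathway genes, 1 was called, 13 with DESeq2, 11 at FDR under 0.05, 3 without the filter, 0 with 10 reads required in 5 libraries, 2 each with RLE factors and total counts, and 0 to 2 with a dog left out. The DESeq2 calls of all 5 and all 13 follow from the choice of the genes, since the study made its list with DESeq2. Without the replicate block, 3 of the 5 genes (IGFBP2 also) and 2 of the 13 were called, and 262 in all, of which 162 were shared. The sex difference gave 0 calls in edgeR in all settings and 5 genes with DESeq2, none of them among the 5 genes described. Levels resting on few reads, such as 16 for IGFBP2 before treatment in dog 4, limit the precision of its change.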
